A study of Cavia porcellus with 12 samples.

Results

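The fibrillar collagen genes described here are *COL1A1*, *COL1A2*, *COL3A1*, *COL5A1* and *COL5A2*, which encode the chains of type I, type III and type V collagen. They were chosen by symbol, and all 5 were among the 11896 human orthologue symbols in the guinea pig liver data. Liver mRNA had been sequenced from 6 guinea pigs with NASH (nonalcoholic steatohepatitis) and from 6 controls, all female Dunkin Hartley animals. The animals with NASH had eaten a high-fat diet with added sucrose and cholesterol for 25 weeks, and the controls a chow diet for the same time. The study picked high-fat-fed animals that had bridging fibrosis on histology and picked controls at random among animals free of NASH and fibrosis. Diet and disease therefore cannot be told apart, and the groups had been selected on the collagen seen in their tissue sections. The tissue came from the left lateral lobe of livers that had not been perfused, and each animal gave 1 library.

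Fibrillar collagens are made as procollagen chains that fold into a triple helix in the endoplasmic reticulum, leave the cell, lose their propeptides and assemble into banded fibrils. Type I collagen combines chains of *COL1A1* and *COL1A2*, type III collagen is built from *COL3A1* alone, and type V collagen, of which *COL5A1* and *COL5A2* encode chains, is buried in type I fibrils and takes part in starting them. In the liver, activated hepatic stellate cells and portal fibroblasts are the best known makers of these chains, and scar tissue is rich in type I and type III collagen.

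Sequencing depth ran from 16980274 to 28636467 counts per control and from 23704607 to 33091460 counts per animal with NASH. Levels are given as CPM, an animal's counts relative to its library size after scaling by edgeR's TMM factors. These factors were 0.804 to 0.875 for the control libraries and 1.12 to 1.24 for the NASH libraries. CPM is not divided by gene length, so a level is compared between animals and not between genes. A gene was called where its adjusted p-value in edgeR's quasi-likelihood test was under 0.05, and of all symbols 3318 were called higher and 3093 lower in NASH. Tissue is a mixture of cells, so that fewer cells of a type and less RNA per cell cannot be told apart in these data. None of the 5 genes shared its count row with another symbol.

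All 5 fibrillar collagen genes were higher in guinea pigs with NASH than in controls, from 3.07-fold for *COL5A2* to 18.5-fold for *COL1A1*. Each of the 5 passed edgeR's test, where 27.9% of all symbols were called higher. For each of the 5, every animal with NASH also lay above every control, which 18.4% of all symbols did. The median log2 fold change over all symbols was 0.00.

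*COL1A1*, which encodes the alpha 1 chain of type I collagen, had the largest rise of the 5. It stood at 3.57, 3.44, 10.6, 12.3, 7.41 and 6.19 CPM in controls 5, 10, 31, 32, 45 and 56. In NASH animals 2, 9, 11, 20, 41 and 65 it stood at 191, 104, 109, 232, 88.7 and 86.6 CPM. The lowest animal with NASH was 7.06 times as high as the highest control. The means were 7.24 ± 3.61 CPM (SD, n = 6) in controls and 135 ± 61.0 CPM (SD, n = 6) in NASH, and the raw counts behind them ran from 50 to 267 and from 2472 to 7435. By edgeR the log2 fold change was 4.21 (SE 0.39, 95% interval 3.36 to 5.06, adjusted p = 2.76e-06). Among all 11896 symbols, 113 had a larger rise.

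*COL1A2*, the gene of the alpha 2 chain, measured 23.9, 25.4, 34.0, 35.5, 31.8 and 33.7 CPM in the controls, in the same order of animals. It measured 242, 157, 165, 297, 122 and 115 CPM in the animals with NASH. The groups did not overlap, and the lowest animal with NASH was 3.24 times as high as the highest control. The mean went from 30.7 ± 4.85 CPM (SD, n = 6) to 183 ± 71.8 CPM (SD, n = 6), a log2 fold change of 2.57 (SE 0.24, 95% interval 2.06 to 3.09, edgeR adjusted p = 2.31e-06). A larger rise was found for 373 symbols.

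*COL3A1*, whose product forms type III collagen, the fine reticulin network of normal liver, rose as well. Its levels were 97.1, 121, 121, 133, 100.05 and 121 CPM in controls and 603, 369, 382, 867, 293 and 279.7 CPM in NASH. The controls lay close together, whereas animals 20 and 2 stood far above the other animals with NASH. The lowest animal with NASH was 2.104 times as high as the highest control. The mean rose from 115 ± 13.9 CPM (SD, n = 6) to 466 ± 228 CPM (SD, n = 6), or 4.03-fold. The log2 fold change was 2.01 (SE 0.26, 95% interval 1.44 to 2.58, edgeR adjusted p = 4.10e-05), and 597 symbols rose by more.

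Both type V genes rose. *COL5A1* stood at 6.36, 7.69, 9.03, 9.68, 8.35 and 6.93 CPM in controls and at 82.5, 31.6, 36.1, 56.6, 30.02 and 26.3 CPM in NASH. It was the only 1 of the 5 genes with its highest level in animal 2 and not in animal 20. The means were 8.01 ± 1.26 CPM (SD, n = 6) and 43.9 ± 21.8 CPM (SD, n = 6), a 5.45-fold difference with a log2 fold change of 2.45 (SE 0.28, 95% interval 1.85 to 3.05, edgeR adjusted p = 1.25e-05). *COL5A2* stood at 18.6, 19.2, 17.1, 20.1, 19.5 and 18.8 CPM in controls and at 70.1, 59.4, 53.6, 74.4, 47.3 and 42.9 CPM in NASH. Its rise was the smallest of the 5 and the most even between animals. The means were 18.9 ± 1.03 CPM (SD, n = 6) and 58.0 ± 12.5 CPM (SD, n = 6), a log2 fold change of 1.62 (SE 0.13, 95% interval 1.34 to 1.90, edgeR adjusted p = 7.06e-07).

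**Figure D1:**
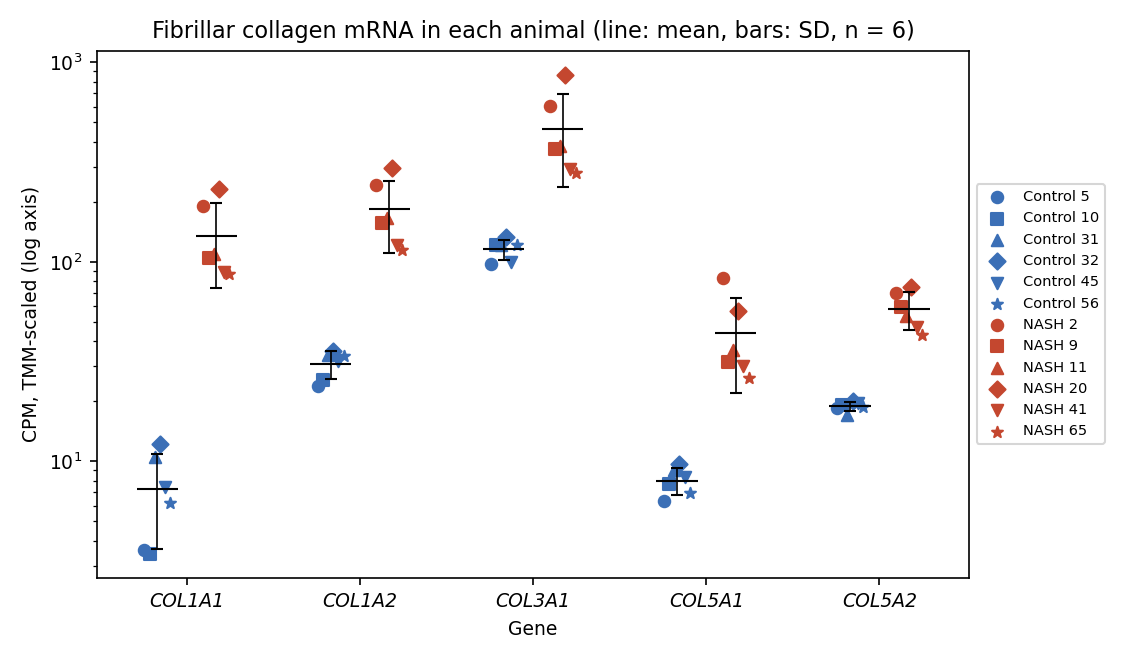
CPM (TMM-scaled, log axis) of the 5 fibrillar collagen genes in each control (blue) and each guinea pig with NASH (red), with 1 symbol shape per animal within a group, the mean as a line and the SD as bars. The red points of every gene lie above all of its blue points, with the widest gap for *COL1A1* and the tightest controls for *COL5A2*.

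Of all counts of a control, the 5 genes together held 0.0153 ± 0.0021% (SD, n = 6), and of all counts of an animal with NASH 0.106 ± 0.0496% (SD, n = 6). The share ran from 0.0120% (exact 95% interval 0.0115% to 0.0125%) in control 5 to 0.0180% (0.0174% to 0.0185%) in control 32. In NASH it ran from 0.0614% (0.0605% to 0.0624%) in animal 65 to 0.186% (0.184% to 0.187%) in animal 20. These intervals cover counting error only and are far narrower than the distance between the lowest and the highest animal of a group. Those of some controls overlapped, as in controls 31 (0.0163% to 0.0173%) and 56 (0.0157% to 0.0169%). Within the collagen counts, *COL1A1* went from 3.90 ± 1.61% in controls to 15.2 ± 0.62% in NASH, and *COL3A1* from 64.0 ± 2.83% to 51.9 ± 2.43% (SD, n = 6 each). *COL1A2* went from 17.02 ± 1.64% to 20.9 ± 0.96%, *COL5A1* from 4.44 ± 0.44% to 4.97 ± 1.09%, and *COL5A2* from 10.6 ± 1.33% to 7.02 ± 1.36%.

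Whether one chain rose by more than another was tested with the log2 ratio of a pair of genes within each animal. Apart from the small prior count added to each gene, this ratio does not depend on how libraries are scaled. Each of the 10 pairs was compared between the groups by an exact permutation test (two-sided, over every assignment of the animals to groups), in which the smallest possible p is 0.00216. Since counts depend on transcript length, the change of a ratio is read here and not its size.

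*COL1A1* rose by more than each of the other 4 genes. The *COL1A1* to *COL1A2* count ratio, which sets the genes of both type I chains side by side, was 0.149, 0.135, 0.311, 0.345, 0.233 and 0.184 in controls 5, 10, 31, 32, 45 and 56. It was 0.788, 0.665, 0.660, 0.781, 0.729 and 0.752 in NASH animals 2, 9, 11, 20, 41 and 65. The ratio thus varied more than 2-fold among controls, was nearly even among animals with NASH, and did not overlap between the groups. The log2 ratio was 1.76 higher in NASH (interval 1.22 to 2.27, exact permutation p = 0.00216, adjusted p = 0.00309). Against *COL3A1* the log2 ratio of *COL1A1* was 2.36 higher (interval 1.74 to 3.04), against *COL5A1* 1.93 higher (interval 1.36 to 2.53) and against *COL5A2* 2.67 higher (interval 1.91 to 3.43), each at the same exact permutation p. On the rlog scale, which shrinks differences, the log2 ratios of *COL1A1* were 0.95, 1.298, 1.17 and 1.56 higher in the same order, each still called (adjusted exact permutation p = 0.00361).

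The other pairs differed by less. *COL1A2* rose by more than *COL3A1* (log2 ratio 0.61 higher, interval 0.40 to 0.81) and by more than *COL5A2* (0.91 higher, interval 0.58 to 1.25), both again at an exact permutation p of 0.00216. Of the type V pair, *COL5A1* rose by more than *COL5A2*. Their count ratio was 0.342 to 0.529 in controls and 0.532 to 1.18 in NASH, and the log2 ratio was 0.74 higher (interval 0.35 to 1.16, exact permutation p = 0.00216). On the rlog scale the 3 differences were 0.35, 0.61 and 0.39 and were still called (adjusted exact permutation p = 0.00361, 0.00361 and 0.00618). The groups only just missed each other, with control 31 at 0.529 and NASH animal 9 at 0.532, and NASH animal 2 had the highest ratio of all animals.

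For *COL3A1* to *COL5A1* the log2 ratio differed by −0.44 (NASH minus Control, interval −0.80 to −0.08, exact permutation p = 0.0216, adjusted p = 0.0271), and the groups overlapped. This call was lost without control 10 (adjusted p = 0.0514) and without control 56 (adjusted p = 0.0541), and on the rlog scale, where the difference was −0.12 (adjusted exact permutation p = 0.301). No difference was called for *COL1A2* to *COL5A1* (0.17, interval −0.15 to 0.46, exact permutation p = 0.262) or for *COL3A1* to *COL5A2* (0.31, interval −0.04 to 0.69, exact permutation p = 0.102). Without NASH animal 2 the *COL1A2* to *COL5A1* difference was 0.28, with an adjusted p of 0.0352. On the rlog scale both pairs were called, *COL1A2* to *COL5A1* at 0.23 (adjusted exact permutation p = 0.0457) and *COL3A1* to *COL5A2* at 0.27 (adjusted exact permutation p = 0.0352).

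**Figure D2:**
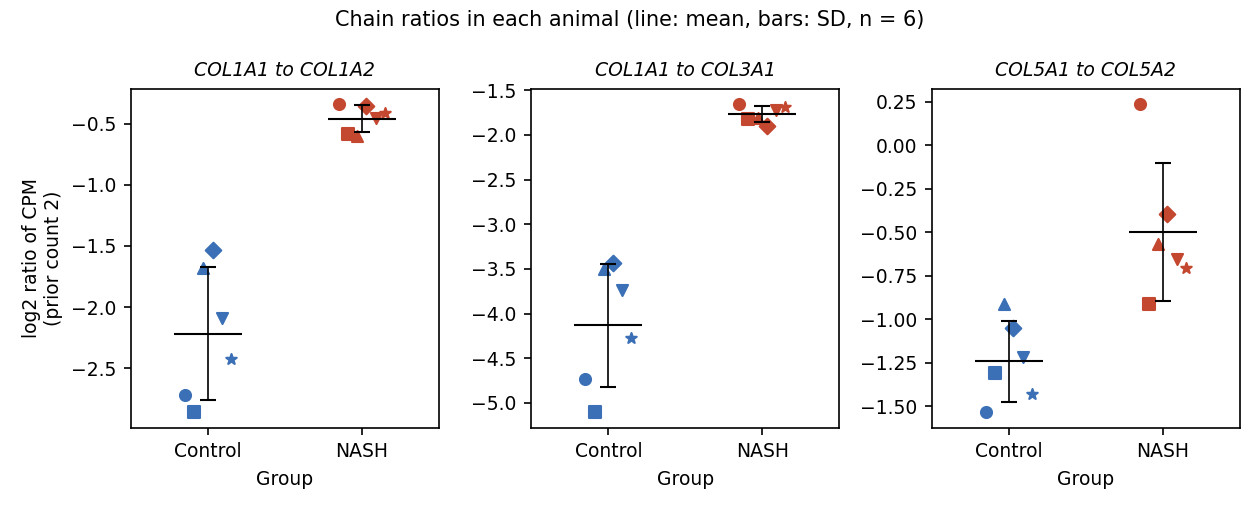
Log2 ratio of CPM for *COL1A1* to *COL1A2*, *COL1A1* to *COL3A1* and *COL5A1* to *COL5A2* in each control (blue) and each guinea pig with NASH (red), with the mean as a line and the SD as bars, and a scale of its own for each pair. Every red point lies above every blue point, and the red points of the first pair lie within a narrow band while the blue points spread.

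The spread between animals differed from gene to gene. Among controls, the coefficient of variation of the CPM was 49.9% for *COL1A1*, 15.8% for *COL1A2*, 12.0% for *COL3A1*, 15.7% for *COL5A1* and 5.47% for *COL5A2*. Counting error alone gives 9.96%, 4.27%, 2.18%, 8.41% and 5.36% for the same genes at these depths. The controls thus hardly differed in *COL5A2* beyond counting error, whereas control 32 had 3.57 times the *COL1A1* of control 10. In NASH the coefficient of variation was 45.1%, 39.3%, 49.0%, 49.6% and 21.5%, and counting error gives less than 3% for each gene. On the log2 scale the SD in NASH was 0.60, 0.54, 0.64, 0.63 and 0.31, where the median over all symbols was 0.187, and between 75.2% and 93.4% of all symbols had a smaller SD.

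The animals with NASH kept nearly the same order in every gene. From high to low it was 20, 2, 11, 9, 41 and 65 for *COL1A1*, *COL1A2* and *COL3A1*. *COL5A1* exchanged animals 2 and 20, and *COL5A2* exchanged animals 11 and 9. The highest animal stood 2.68 times above the lowest for *COL1A1*, 2.58 times for *COL1A2*, 3.10 times for *COL3A1*, 3.14 times for *COL5A1* and 1.74 times for *COL5A2*. Animals 20 and 2 were the top pair for all 5 genes, and animals 41 and 65 the bottom pair. Among controls, animal 32 was highest for all 5 genes, while the lowest was animal 10 for *COL1A1*, animal 31 for *COL5A2* and animal 5 for the other 3.

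**Figure D3:**
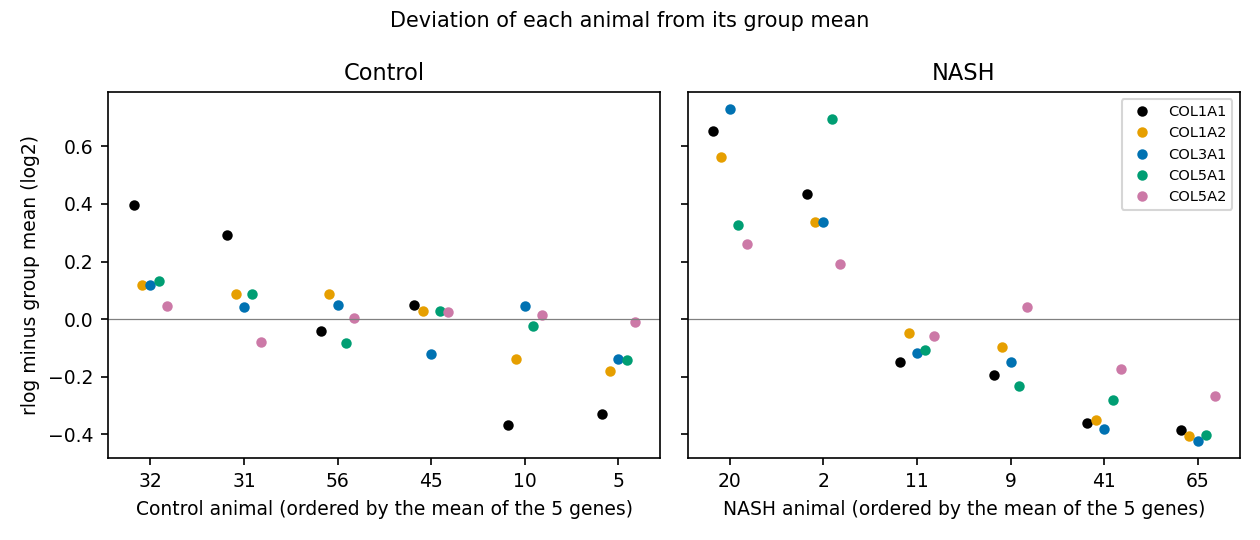
Deposited rlog value of each fibrillar collagen gene minus its group mean (log2), for each control (left) and each guinea pig with NASH (right), with animals ordered by the mean of the 5 genes and 1 colour per gene. In NASH, all 5 genes lie above the group mean in animals 20 and 2 and below it in animals 41 and 65, while in controls *COL1A1* moves the most and *COL5A2* hardly moves.

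Co-variation was computed within each group from the deposited rlog values, with exact permutation tests over all 720 pairings and adjustment over the 20 relations (10 pairs of genes in each of the groups). In NASH, Pearson's r lay between 0.84 and 0.99, and 6 of 10 pairs had an adjusted p under 0.05. The highest were *COL1A1* with *COL1A2* (r = 0.986), *COL1A1* with *COL3A1* (r = 0.991) and *COL1A2* with *COL3A1* (r = 0.991). Each of these had an exact permutation p of 0.00139, the smallest possible, an adjusted p of 0.00926 and a Spearman's rho of 1 (p = 0.00278, adjusted p = 0.0185). The pairs of *COL5A2* with these 3 genes followed, with r of 0.937, 0.967 and 0.944 and a rho of 0.943 each (adjusted exact permutation p = 0.0139 for r and 0.0370 for rho).

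The pairs of *COL5A1* were the loosest in NASH, with r from 0.840 to 0.90 and adjusted exact permutation p = 0.0579. On ranks, 9 of 10 pairs passed, all but *COL5A1* with *COL5A2* (rho = 0.886, adjusted p = 0.0606). Without animals 2 and 20, which lay farthest from the median, the 10 values of r lay between 0.731 and 0.9996, which is given as a description, since 4 animals are too few for a test. The lowest of these was that of *COL5A1* with *COL5A2*, which had been 0.854 with all 6 animals. With log2 CPM and library size alone as the scaling, 9 of 10 pairs passed on r.

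Among controls, no pair passed, and 2 of 10 had an unadjusted exact permutation p under 0.05. These were *COL1A1* with *COL1A2* (r = 0.902, p = 0.0292, adjusted p = 0.0579, rho = 0.886) and *COL1A1* with *COL5A1* (r = 0.851, p = 0.0333, adjusted p = 0.0579, rho = 0.829). With log2 CPM in place of rlog values 1 pair passed, and with library size alone as the scaling 2 passed. Without the controls farthest from the median, the 10 values of r over 4 controls ran from −0.65 to 0.998, again too few animals for a test. For *COL1A2* with *COL3A1* r went from 0.562 to 0.998, and for *COL5A1* with *COL5A2* from 0.02 to −0.65. The 4 pairs with *COL5A2* had r between −0.10 and 0.05 on rlog values, a rho between 0.257 and 0.486, and r between 0.366 and 0.480 with library size alone as the scaling. The controls hardly differed in *COL5A2* beyond counting error (coefficient of variation 5.47%, of which counting alone gives 5.36%). These pairs therefore cannot show whether *COL5A2* varied with the other genes among controls. The difference in r between the groups was not tested.

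**Figure D4:**
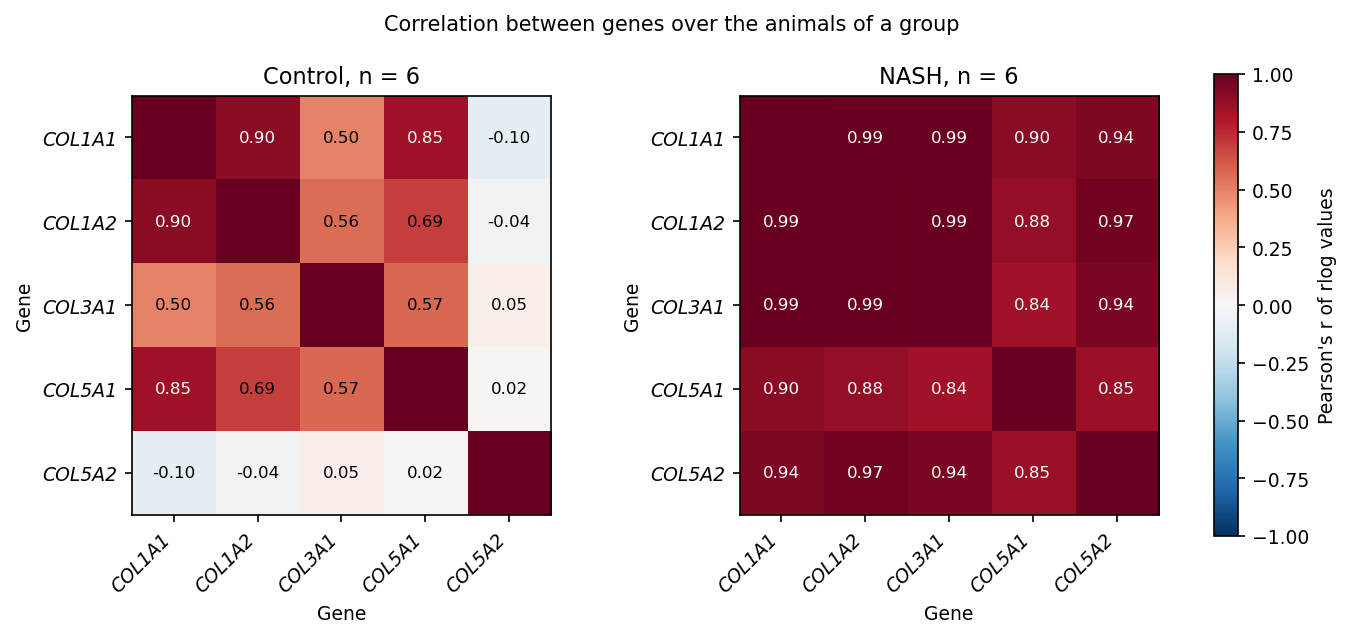
Pearson's r of the deposited rlog values for each pair of fibrillar collagen genes over the 6 controls (left) and the 6 guinea pigs with NASH (right), on a colour scale from −1 to 1. All NASH pairs lie at 0.84 or above, whereas the control pairs run from −0.10 to 0.90. The control pairs with *COL5A2* lie between −0.10 and 0.05 and depend on the scaling, and among controls this gene hardly varied beyond counting error.

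The genes whose pattern was most like that of the fibrillar collagens were found from the rlog values after subtracting the group means, as the correlation over 12 animals with the mean of the 5 genes. The likeness is a description, and all points share the same libraries and the group centring. It was highest for *QSOX1*, a sulfhydryl oxidase of the secretory pathway (r = 0.96), and *LGALS1*, which encodes galectin-1 (0.94). *CLEC11A*, a secreted growth factor, and *EPB41L3*, a membrane skeleton protein, followed with 0.94 and 0.93. The rest were *SPARC*, a collagen-binding matricellular protein (0.93), *EHD2*, a protein of caveolae (0.92), *FABP5*, a fatty acid binding protein (0.91), *COL4A1*, a chain of basement membrane collagen (0.91), *LOXL1*, a lysyl oxidase family enzyme (0.89), and *ANKRD1*, a target gene of YAP (0.89). Over all symbols the median likeness was 0.01. Within the 6 animals with NASH, r with the mean of the 5 genes lay between 0.92 and 0.996 for these 10 genes. Within the 6 controls it was 0.91 for *FABP5*, 0.90 for *QSOX1*, 0.87 for *LGALS1*, 0.77 for *EHD2* and 0.67 for *LOXL1*. It was 0.52 for *ANKRD1*, 0.46 for *EPB41L3*, 0.43 for *CLEC11A*, 0.35 for *COL4A1* and 0.11 for *SPARC*. After subtracting the group means, the mean of the 5 genes ran from −0.38 to 0.51 in NASH and from −0.16 to 0.16 in controls. The r over 12 animals thus rests mostly on the animals with NASH.

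All of these 10 genes were also called higher in NASH by edgeR, as were 27.9% of all symbols, and they had been chosen for their likeness to genes that rose. *CLEC11A*, *EPB41L3*, *LOXL1* and *ANKRD1* had 59, 23, 189 and 2 counts over all controls and 424, 217, 1970 and 254 over all animals with NASH. They thus reached the total of 200 counts that the table requires only through the NASH group, and their calls are no support, whereas the controls alone gave each of the 5 fibrillar collagen genes at least 883 counts. *QSOX1* rose from 15.1 ± 1.63 to 68.3 ± 12.7 CPM, *SPARC* from 109 ± 8.10 to 298 ± 102 CPM and *COL4A1* from 35.8 ± 5.84 to 202 ± 58.4 CPM (SD, n = 6 each). In NASH, *QSOX1* stood at 79.0, 66.7, 64.9, 87.3, 58.7 and 53.2 CPM in animals 2, 9, 11, 20, 41 and 65, with animals 20 and 2 at the top and 41 and 65 at the bottom as for the collagens. *EPB41L3* and *ANKRD1*, the latter without a count in any control but control 32, were near the limit of detection, at 0.176 ± 0.206 and 0.0153 ± 0.0375 CPM in controls, where a count of 0 allows up to 0.214 CPM (3 counts). The edgeR call of *EPB41L3* (adjusted p = 0.0295) was lost when any of controls 5, 10, 32, 45 and 56 or NASH animals 2 and 20 was left out, and with limma-voom (log2 fold change 1.98, adjusted p = 0.303). With log2 CPM in place of rlog values, 7 of the 10 genes were again among the 10 most alike.

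The remaining genes of the pathway are described by the steps they serve, and for each list the number called by edgeR and the median log2 fold change are given beside the 27.9% of all symbols called higher and the overall median of 0.00. Of the 6 other fibrillar collagen genes, 2 were in the table, and both fell. *COL11A1*, a minor fibrillar chain of cartilage, was 21.6 ± 9.68 CPM in controls and 0.904 ± 0.728 CPM in NASH (log2 fold change −4.56, SE 0.59, adjusted p = 3.71e-05). At this level in NASH, *COL11A1* reached the required total of counts only through the controls, so its call is no support. *COL24A1* was 218 ± 39.7 CPM in controls and 78.8 ± 25.4 CPM in NASH (log2 fold change −1.47, SE 0.20, adjusted p = 5.03e-05). Of all symbols, 26.0% were called lower by edgeR and 15.3% had every animal with NASH below every control. Neither gene overlapped between the groups, and both were also called lower with library size alone as the scaling, with the same limit for *COL11A1*.

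Of the 29 genes of procollagen folding, secretion and propeptide removal, 25 were measured, of which 10 rose, 3 fell and 12 did not pass, with a median log2 fold change of 0.20. The prolyl 3-hydroxylase family gene *P3H3* rose by 2.08 on the log2 scale, the propeptidase gene *ADAMTS2* by 2.04, the chaperone gene *FKBP10* by 1.91 and *SERPINH1*, the collagen chaperone HSP47, by 1.39. At a mean of 1.48 CPM in controls, *P3H3* reached the required total of counts only through the NASH group, so its call is no support. *SERPINH1* went from 33.1 ± 4.03 to 86.7 ± 21.8 CPM. The genes that fell were *P4HB*, a subunit of prolyl 4-hydroxylase and a general disulfide isomerase (−0.47), the collagen export gene *MIA3* (−0.49) and *P3H2* (−0.51), and none of these 3 was called with library size alone. The call of *P3H2* was also lost when any of controls 10, 31, 45 and 56 or NASH animals 9, 11, 20, 41 and 65 was left out. Among the genes that rose, *P4HA2* (0.48) lost its call when any of 6 single animals was left out, and *KLHL12* (0.15) with any of 8. The procollagen C-proteinase gene *BMP1* (−0.02) and the peptidyl-prolyl isomerase gene *PPIB* (−0.01) had adjusted p = 0.91 each.

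Of 4 measured cross-linking enzymes, 3 rose (median 1.19), namely *LOXL1* (2.70), *LOXL2* (1.28) and *LOXL4* (1.10), and *LOXL3* (0.46) did not pass. With 189 counts over all controls, *LOXL1* reached the required total of counts only through the NASH group, so its call is no support. Of 18 measured proteins and collagens that coat fibrils or bind to their surface, 15 rose and 3 fell (median 1.44). *COL16A1* rose the most (4.51), *THBS1* rose by 4.06, the small proteoglycan genes *FMOD*, *LUM* and *DCN* rose by 3.57, 1.20 and 0.62, and *FN1*, the fibronectin gene that hepatocytes also express strongly, fell by 0.99. *COL16A1* and *FMOD*, at means of 0.426 and 0.819 CPM in controls, reached the required total of counts only through the NASH group. The calls of *COL16A1* and *FMOD* are therefore no support. The other genes of this list that fell were *POSTN* (−0.80) and *BGN* (−0.50), neither of which was called with library size alone.

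Of 7 measured genes of collagen breakdown and its inhibitors, 4 rose and none fell (median 1.503). These were *MRC2*, an uptake receptor for collagen (3.84), the inhibitors *TIMP1* (2.20) and *TIMP2* (1.503), and the gelatinase gene *MMP2* (2.02). *MRC2* and *MMP2*, at means of 0.737 and 0.733 CPM in controls, reached the required total of counts only through the NASH group. The calls of *MRC2* and *MMP2* are therefore no support. *MMP14* (0.27) and *TIMP3* (−0.19) did not pass, and *MMP14* shared its count row with another symbol. Of 7 measured receptors of fibrillar collagen, 3 rose and 1 fell (median 0.54), with the discoidin domain receptor gene *DDR1* highest (3.58) and *MRC1*, the mannose receptor of macrophages and sinusoidal endothelium, lowest (−0.67, not called with library size alone). *DDR2*, the receptor of mesenchymal cells, had a log2 fold change of 0.80 (edgeR adjusted p = 0.0459), a call that was lost when any of controls 10, 31, 32, 45 and 56 or NASH animals 9, 20, 41 and 65 was left out.

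Of 20 measured inducers and regulators of collagen transcription, 11 rose and 2 fell (median 0.37). *TGFB3*, *TGFB1* and *TGFB2*, which encode the TGF-beta ligands, rose by 2.74, 1.26 and 0.96, and the growth factor genes *PDGFB*, *PDGFD* and *PDGFA* by 2.39, 2.102 and 1.20. At a mean of 0.972 CPM in controls, *PDGFB* reached the required total of counts only through the NASH group, so its call is no support. *NFYB*, a subunit of a CCAAT-binding factor, fell by 1.03, and *SMAD7*, an inhibitor of TGF-beta signalling, fell by 0.54 (not called with library size alone). The counts of several lists changed with the scaling and are given among the results on processing.

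**Figure D5:**
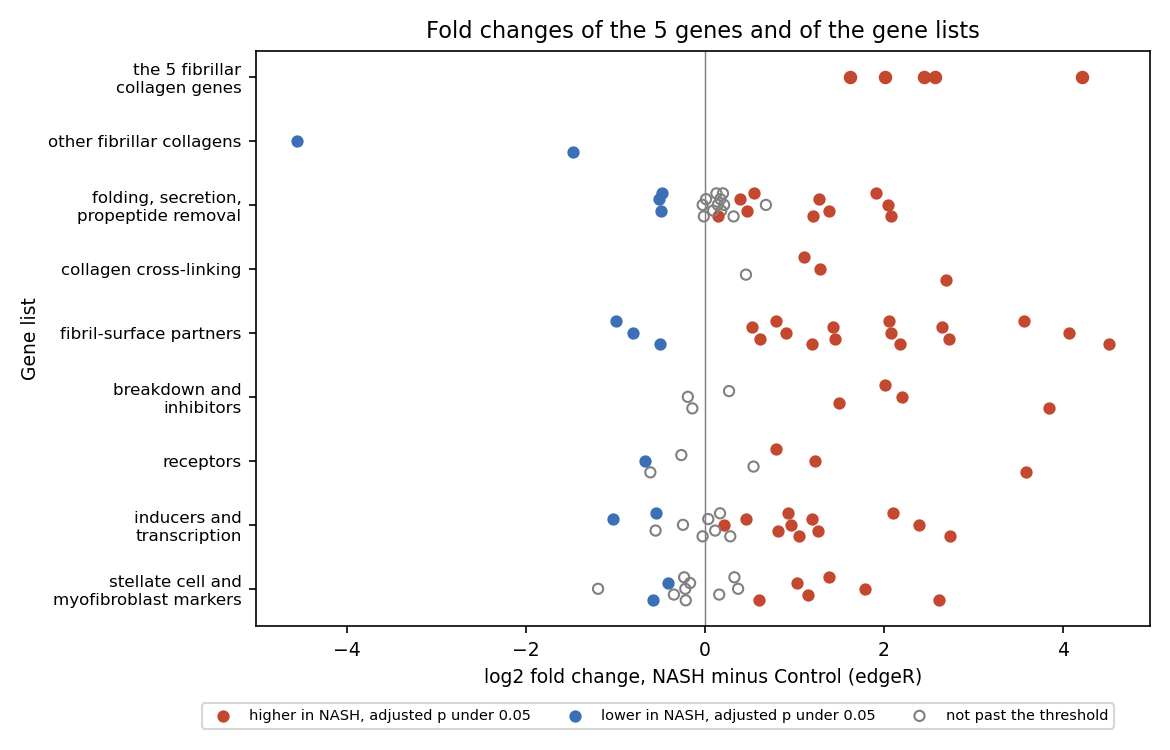
Log2 fold change (NASH minus Control, edgeR) of the 5 fibrillar collagen genes in the top row and, below, of each measured gene of the pathway lists and of the stellate cell and myofibroblast markers, with 1 circle per gene, coloured by its call. All 5 collagen genes lie between 1.62 and 4.21, whereas each list from folding downwards holds genes between −1 and 1 as well as genes past 1.

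Of 17 measured markers of stellate cells and myofibroblasts, 6 rose, 2 fell and 9 did not pass, with a median log2 fold change of 0.16. Over all symbols 27.9% were called higher and 26.0% lower, so that the share of these markers called higher was near that of all symbols. *RGS5*, a marker of pericytes and stellate cells, rose by 2.62 (85.8 ± 12.7 to 527 ± 136 CPM) and *PDGFRB*, the receptor of PDGF on these cells, by 1.79 (14.2 ± 1.98 to 49.3 ± 7.05 CPM). *ACTA2*, the smooth muscle actin of myofibroblasts, rose by 1.15 (26.1 ± 14.3 to 57.9 ± 10.4 CPM), with control 5 at 43.4 CPM above NASH animal 41 at 41.8 CPM. *TAGLN* (0.16) and *DES* (−0.35) did not pass, and *LRAT*, the vitamin A storage enzyme of stellate cells, was lower by 0.57 (48.3 ± 6.70 to 32.5 ± 4.31 CPM) and not called with library size alone.

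The summed level of these 17 markers was 600.08 to 765 CPM in controls and 1399, 1233, 1288, 1553, 1144 and 1029.7 CPM in NASH animals 2, 9, 11, 20, 41 and 65. In NASH the animals thus had the same order in this sum as in *COL1A1*, *COL1A2* and *COL3A1*, and *RGS5* made up the largest part of it. The part of the number of these cells in the collagen levels was not tested.

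The part of other cell types in the collagen rise was not tested, and their markers are given as sums and as counts, to be read against the 27.9% of all symbols called higher and the 26.0% called lower. The summed level of 5 cholangiocyte markers (4 rose, none fell) was 90.3 to 121 CPM in controls and 294 to 523 CPM in NASH, where it was highest in animal 20 and lowest in animal 65. That of 9 macrophage markers (3 rose, 1 fell) was 403 to 711 and 1023 to 1347 CPM, highest in animal 41. That of 8 hepatocyte markers (none rose, 7 fell) was 104440 to 126219 and 44320 to 67987 CPM, lowest in animal 20 and highest in animal 65.

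Of 9 endothelial markers 3 rose and 2 fell, with sums of 584 to 789.9 CPM in controls and 644 to 922 CPM in NASH. Of 6 T cell markers 1 rose and 1 fell, and their sum was 56.6 to 111 CPM in controls and 33.1 to 61.2 CPM in NASH, where all animals but animal 65 lay below the lowest control. Of 4 B and plasma cell markers 3 rose and none fell (10.4 to 30.5 and 22.5 to 30.95 CPM), and of 4 smooth muscle markers none was called (67.8 to 101 and 58.7 to 87.4 CPM). None of the 6 markers of the liver capsule was in the table. The 5 erythroid markers all rose, with sums of 58.3 to 173 CPM in controls and of 712, 431, 729, 689, 4560 and 3300 CPM in NASH animals 2, 9, 11, 20, 41 and 65. With limma-voom *RHAG* (log2 fold change 2.91, adjusted p = 0.0535) and *KLF1* (1.72, adjusted p = 0.139) were not called. Animals 41 and 65, which had the most erythroid RNA, were the animals with NASH lowest in all 5 collagen genes. Without animal 41 the log2 fold changes were 4.31 for *COL1A1*, 2.67 for *COL1A2*, 2.12 for *COL3A1*, 2.54 for *COL5A1* and 1.67 for *COL5A2*, and without animal 65 all 5 genes were also called.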

How the data were processed

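The authors sequenced stranded, poly(A)-selected mRNA from single ends, trimmed reads with Trimmomatic 0.38.0, mapped them with HISAT2 2.1.0 to the guinea pig genome (Cavpor3.0) and, leaving out reads that mapped to several places, used StringTie 1.3.6 to assemble loci and count them. They deposited raw counts per locus and log2 values made from those counts with the rlog transformation of DESeq2. The count table has no symbols, so the rlog transformation was repeated with DESeq2 1.42.0 until each of the 11896 symbols matched a count row to within 8.35e-07.

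Counts were tested with edgeR 4.0.16 in R 4.3.3 (TMM factors, whole-table library sizes, robust glmQLFit and glmQLFTest, Benjamini-Hochberg over all symbols). An SE is a log2 fold change without its sign, divided by the root of its F. Ratios used log2 CPM with a prior count of 2 and exact permutation tests, inverted for the 95% intervals. Alternatives were RLE factors, library size alone, DESeq2, limma-voom and limma 3.58.1 on rlog values, other filters, a fold threshold, and each animal left out. Procedures were tested on simulated data. Figures were drawn with matplotlib 3.10.9 in Python 3.11.15. Named genes are the 5 collagens, the highest and lowest of each list of collagen partners with further members acting on collagen, and the 10 most alike genes. The members and lists were chosen with earlier results of these data known.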

Additional observations from a re-analysis of the deposited data

Results flagged for a closer look

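For the 5 levels, the 10 ratios and the share of counts, 32 groups of 6 animals were examined for a single animal far from the others, which chance gives in about 1 in 20 groups. In NASH, animal 20 had a log2 ratio of *COL1A2* to *COL3A1* of −1.55, while the other 5 animals lay between −1.32 and −1.21. Among controls, animal 56 had a log2 ratio of *COL1A2* to *COL5A1* of 2.27, while the other 5 lay between 1.72 and 1.92. For the levels of the 5 genes no animal stood apart in this way.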

How the results depend on the processing

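All 5 genes were called higher under each alternative. The log2 fold changes were lowest on the rlog scale, which shrinks differences (2.53, 1.58, 1.23, 1.35 and 0.97 for *COL1A1*, *COL1A2*, *COL3A1*, *COL5A1* and *COL5A2*), and highest with library size alone (4.69, 3.06, 2.5, 2.94 and 2.101). With single animals left out they ran from 3.99 to 4.42, 2.38 to 2.67, 1.74 to 2.12, 2.17 to 2.55 and 1.53 to 1.68. Library size alone moved the median of all symbols to 0.48 and the calls from 3318 higher and 3093 lower to 7603 and 911. Tested against an absolute log2 fold change of 1, 1100 symbols passed.

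For ratios, the rlog differences were 0.23 for *COL1A2* to *COL5A1* (adjusted exact permutation p = 0.0457), −0.12 for *COL3A1* to *COL5A1* (p = 0.301) and 0.27 for *COL3A1* to *COL5A2* (p = 0.0352), and the cause was not tested. The rlog differences of the other 7 ratios, 0.35 to 1.56, were smaller than those of counts and still called. With single animals left out, the first lay between 0.11 and 0.28, the second between −0.54 and −0.33 and the third between 0.18 (without NASH animal 20) and 0.36. Of pairs of genes, 1 was correlated among controls with log2 CPM and 2 with library size alone, where 9 were in NASH.

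With library size alone, which called 63.9% of all symbols higher and 7.66% lower, list counts became 20 higher and 0 lower for folding and secretion, 4 higher for cross-linking, 1 lower for fibril-surface partners, 6 higher for breakdown, 4 higher and 0 lower for receptors, 15 higher and 1 lower for inducers, 8 higher and 0 lower for stellate cell markers, 1 higher for smooth muscle, 5 higher and 1 lower for endothelium, 7 higher for macrophages, 2 higher for T cells, 5 higher for cholangiocytes and 4 lower for hepatocytes. The other list counts did not change. No paired analysis was possible because the groups share no animal numbers. Correlations without 2 animals had too few animals for a test. Depth limits *COL1A1* and *COL5A1* most, with as few as 50 and 89 counts in a control.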
